A study of Mus musculus with 12 samples.

Results

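Granins and the prohormone processing machinery were followed as 10 genes, namely Chga, Chgb, Scg2, Scg3, Vgf, Scg5, Pcsk1, Pcsk2, Cpe and Pcsk1n, chosen by symbol from the 38924 genes listed for each tumor. The tumors were 12 pancreatic neuroendocrine tumors (PanNETs) of RIP1Tag2 mice on the C57Bl6 background, which carry a viral oncogene driven by the rat insulin promoter in pancreatic beta cells and so develop insulin-producing tumors; all 3 groups carry it. Control mice had received saline (tumors 1, 2, 3 and 4), another group sunitinib, which blocks the receptors of VEGF and PDGF (tumors 5, 6, 8 and 12), and the last group the mTOR inhibitor rapamycin together with sunitinib, R+S (tumors 4, 5, 7 and 10). Per the labels, treatment started at 15.5 weeks of age and lasted 4 days. Poly(A) RNA had been sequenced in the study to ask how tumors adapt to sunitinib and what rapamycin adds.

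Neuroendocrine cells store their peptides in dense-core granules. Granins are acidic proteins that condense with the hormone cargo in the trans-Golgi and form the granule core, and several of them are themselves cut into bioactive peptides. The convertases PC1/3 (Pcsk1) and PC2 (Pcsk2) cut prohormones at pairs of basic residues, carboxypeptidase E (Cpe) then trims the exposed basic residues, and 7B2 (Scg5) and proSAAS (Pcsk1n) are small granule proteins that bind PC2 and PC1/3. In beta cells this machinery turns proinsulin into insulin, and circulating chromogranin A (Chga) is a clinical marker of neuroendocrine tumors.

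The reads counted on genes numbered 31872342 to 44215054 a tumor (median 38526164). Sunitinib-treated tumor 6 stood apart from its group: its log2 CPM correlated with those of the other sunitinib-treated tumors at 0.872 to 0.895 across genes, against 0.957 to 0.978 among the other tumors of the group. Each of the 10 beta-cell markers had its lowest level of the 12 tumors there (summed 1856 CPM against 31261 to 76788 in the other 11), and the leading examples were Ins2 at 784 CPM against 10612 to 43805 and Pdx1 at 4.17 CPM against 155 to 442. Of the 6 alpha-cell markers, 5 were at their highest in tumor 6, led by Ttr at 6357 CPM, while Gcg, at 74.1 CPM, lay inside the range of the other tumors. Its marker levels thus went against those of an insulin-producing tumor, and the comparisons are given with and without it. Acinar-cell markers summed to 41.2 to 132 CPM in control tumors, 11671 to 42329 CPM in sunitinib-treated tumors and 3150 to 17415 CPM in R+S-treated tumors. Of 19 acinar markers tested 18 passed as higher in either treated group than in control. Endothelial markers summed to 352 to 503, 33.5 to 63.8 and 85.3 to 111 CPM in the same order, with 7 of 8 lower than control in either treated group. A prefix in the labels, of unstated meaning, is shared by all control tumors and never by tumors of different groups. Sunitinib-treated tumors 5, 6 and 8 also share a prefix, as do R+S-treated tumors 5 and 7. The part of the prefix and that of treatment cannot be told apart. Tumors that share a prefix would not be independent if it names a mouse.

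**Figure D1:**
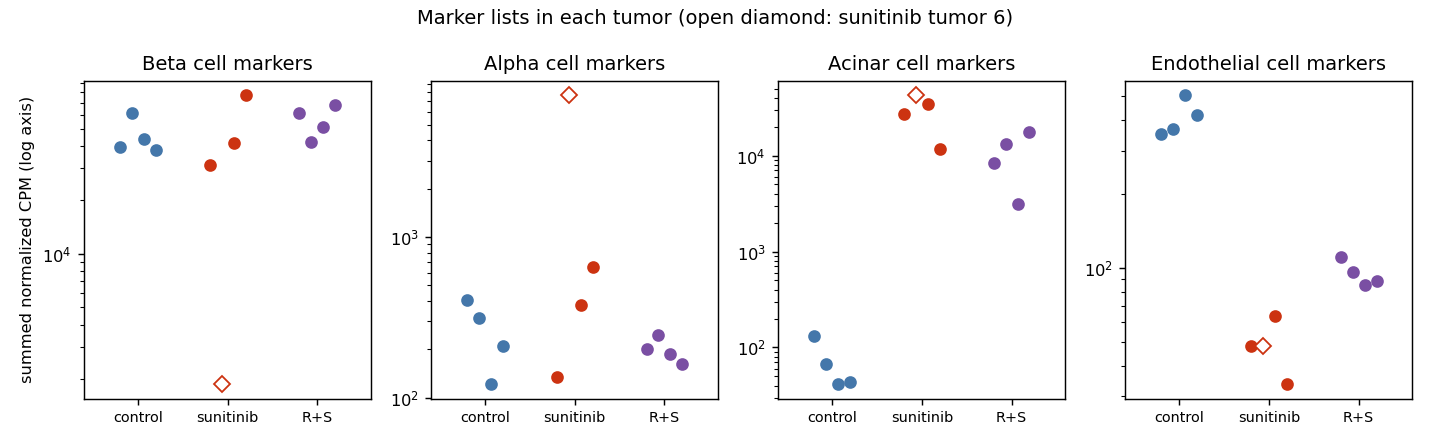
Summed normalized CPM (log axis) of the beta-cell, alpha-cell, acinar-cell and endothelial marker lists, with 1 point per tumor and the groups along the horizontal axis. Sunitinib-treated tumor 6 (open diamond) has the lowest beta-cell sum, 1856 CPM, and the highest alpha-cell sum, 7628 CPM.

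In control tumors 8 of the 10 genes were among the 137 most abundant of 16469 genes per length of transcript. On the RPKM scale (reads scaled to exon length and normalized library size; mean ± SD, n = 4) secretogranin II (Scg2) led with 1585 ± 547, at rank 12. Chga followed with 1038 ± 123, Cpe with 1035 ± 288 and chromogranin B (Chgb) with 725 ± 217. Pcsk2 was at 472 ± 53.0 RPKM and secretogranin III (Scg3) at 437 ± 19.4, then Scg5 at 199 ± 66.2 and Pcsk1n at 158 ± 106. Pcsk1 lay lower, at 53.2 ± 13.9 RPKM and rank 675, and Vgf, the nerve growth factor-inducible granin, lay last, at 4.00 ± 1.57 RPKM and rank 9178. The 4 control values of Scg2, Chga, Cpe and Chgb overlapped between neighbors in that order, as did those of Chgb and Pcsk2, Pcsk2 and Scg3, and Scg5 and Pcsk1n. Those of Scg3 lay wholly above Scg5, those of Pcsk1n above Pcsk1, and those of Pcsk1 above Vgf. Together the 10 genes took 1.59% to 3.00% of all counted reads, the highest share being in R+S-treated tumor 4.

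**Figure D2:**
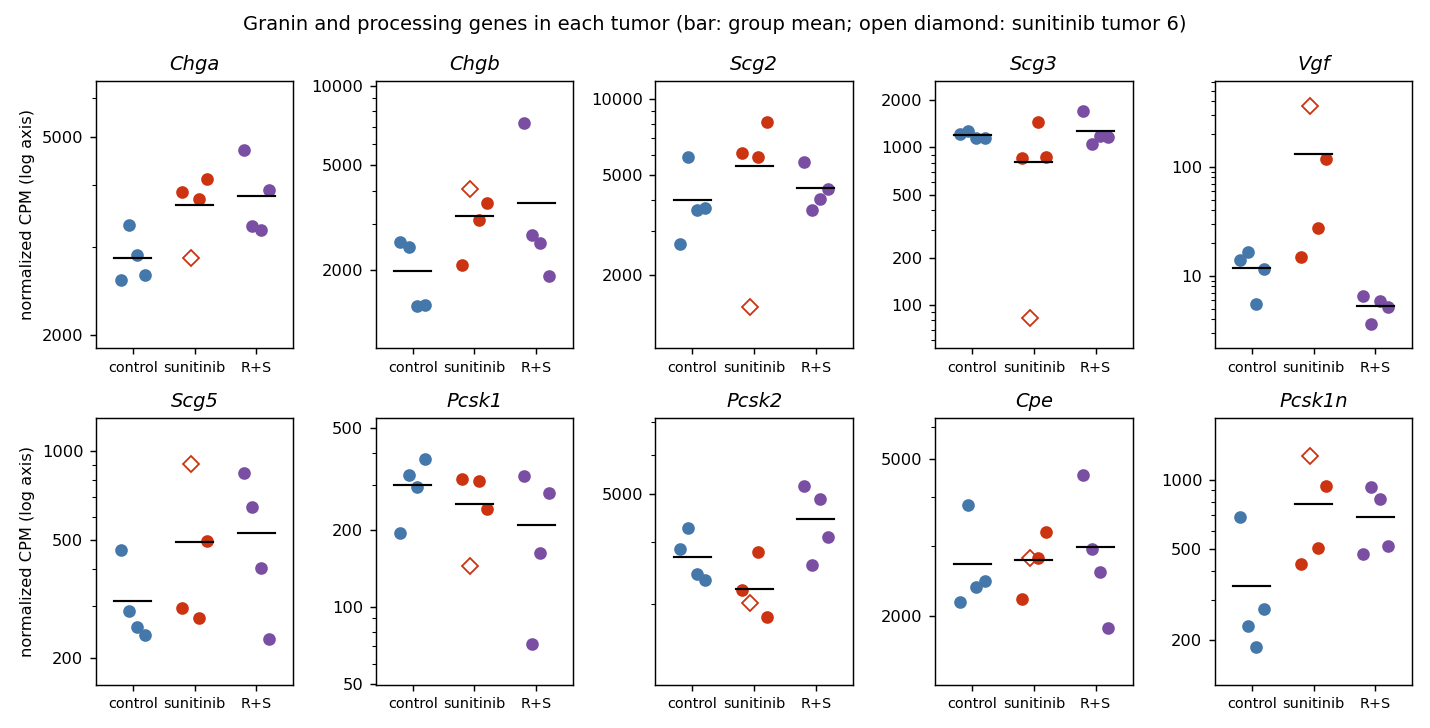
Normalized CPM (log axis, a separate range for each gene) of the 10 genes, with 1 point per tumor, horizontal bars for group means and an open diamond for sunitinib-treated tumor 6. Vgf spreads from 15.01 to 366 CPM in sunitinib-treated tumors and from 3.64 to 6.57 CPM in R+S-treated tumors, and Scg3 falls to 82.7 CPM in tumor 6.

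The promoters of several of these genes hold a cAMP response element, the palindrome TGACGTCA, which is bound by CREB-family factors. RefSeq promoter windows (GRCm38.p6, from 250 bases before to 50 after the annotated start) were matched for 8 of the 10 genes, all except Vgf and Cpe. The full element was found in 3 of the 8, against 1.79% of 32851 windows of that length, and its shorter form TGACG, on either strand and also counted inside the full element, in 7 of the 8, against 20.8%. The hypoxia response core ACGTG was found in Scg5 and Pcsk1, against 19.6% of windows. These are matches of letters, not shown sites of binding. The 100 bases before the start are shown for the 3 genes with the full element, which did not change together below, and for Chga, with the shorter form, with these elements in capitals. They lie at chr2:132781542-132781641 (+ strand, Chgb), chr1:79440027-79440126 (- strand, Scg2), chr13:75089757-75089856 (+ strand, Pcsk1) and chr12:102554841-102554940 (+ strand, Chga). For Chgb, Scg2 and Pcsk1 the GENCODE gene model begins farther upstream than the RefSeq start.
Chgb: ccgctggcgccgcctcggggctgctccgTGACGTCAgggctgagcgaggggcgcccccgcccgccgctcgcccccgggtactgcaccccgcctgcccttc
Scg2: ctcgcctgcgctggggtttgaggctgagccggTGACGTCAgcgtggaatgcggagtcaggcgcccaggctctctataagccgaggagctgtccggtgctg
Pcsk1: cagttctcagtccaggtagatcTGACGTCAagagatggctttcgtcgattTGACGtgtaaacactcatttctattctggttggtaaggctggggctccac
Chga: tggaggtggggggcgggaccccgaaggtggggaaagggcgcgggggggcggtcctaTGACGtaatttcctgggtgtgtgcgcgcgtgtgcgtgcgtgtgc
The full element begins 72 bases before the start in Chgb, 68 in Scg2 and 78 in Pcsk1.

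Sunitinib-treated tumors were compared with control tumors for the response to the drug alone. Vgf rose 11.1-fold, and the other 9 genes did not pass the test (adjusted p of edgeR's quasi-likelihood test under 0.05 over 16645 genes). That is 1 of 10, where 4.48% of all genes tested passed, 1.93% as higher. The 10 log2 fold changes had a median of 0.40, and 3 were negative, where the median of all genes was 0.03 and 46.7% were negative. In these bulk samples fewer cells of a type and less RNA per cell cannot be told apart. Without tumor 6 none of the 10 passed the adjusted threshold, where 5.3% of all genes did. In that fit 3 (Chga, Scg2 and Vgf) had an unadjusted p under 0.05, and the share of all genes at that unadjusted threshold is not given here. With all tumors 2 (Vgf and Pcsk1n) had an unadjusted p under 0.05, as did 19.5% of all genes, and DESeq2 called Vgf alone.

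R+S-treated tumors were compared with the same control tumors. None of the 10 genes passed by edgeR or by DESeq2, against 4.16% of all genes by edgeR, and 1, Chga, had an unadjusted p under 0.05 (20.1% of all genes did). The median log2 fold change was 0.20, and 2 of the 10 were negative, where the median of all genes was 0.01 and 49% were negative. The fit without sunitinib-treated tumor 6, which enters here through the shared estimate of the spread, also called none of the 10, where it called 9.67% of all genes. In that fit 2 (Chga and Pcsk1n) had an unadjusted p under 0.05, and the share of all genes at that unadjusted threshold is not given here.

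R+S-treated tumors were then compared with sunitinib-treated tumors for what rapamycin added. Vgf fell 24.9-fold and was the 1 gene of 10 that passed, where 7.21% of all genes passed, 4.58% as lower. Vgf was also the 1 gene of the 10 whose groups did not overlap, and 9.73% of all genes were lower without overlap. This comparison shares its sunitinib-treated tumors with the first, so that the high values of Vgf there enter both. The median of the 10 log2 fold changes was 0.08 with 4 negative, where 51.8% of all genes were negative, and 2 (Vgf and Pcsk2) had an unadjusted p under 0.05, as did 30.4% of all genes. Without tumor 6 Vgf remained the 1 gene called, where 10.1% of all genes passed.

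**Figure D3:**
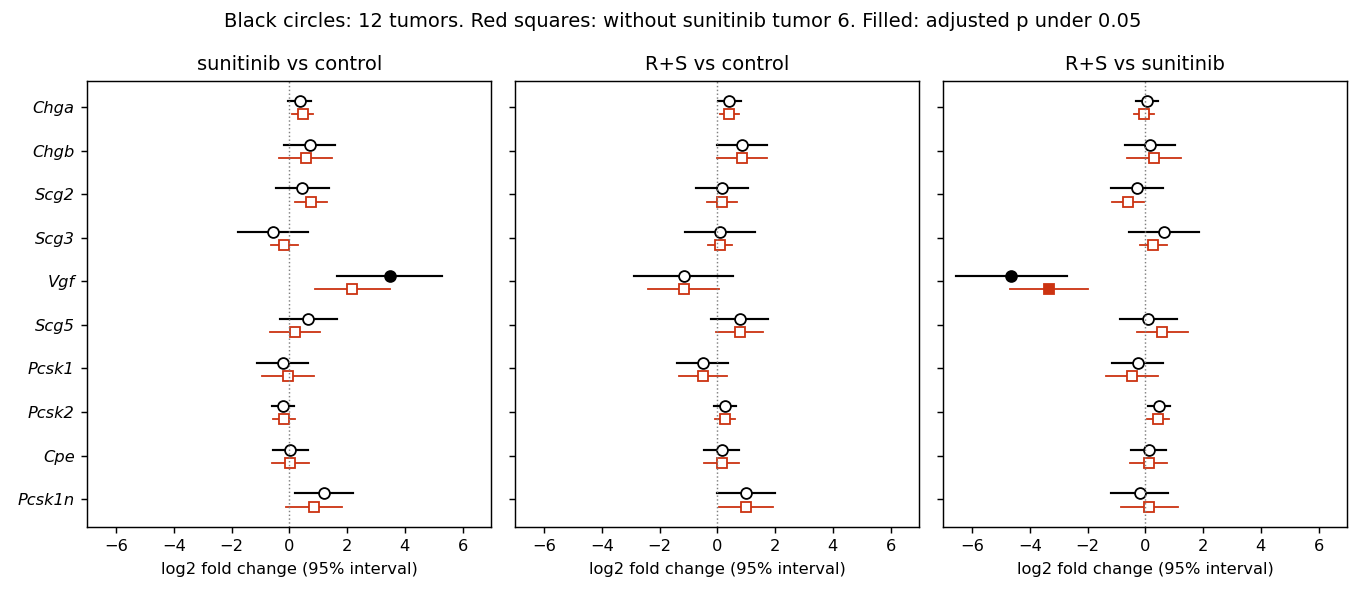
Log2 fold change with its 95% interval for each gene in the 3 comparisons, from all 12 tumors (black circles) and without sunitinib-treated tumor 6 (red squares), filled where the adjusted p is under 0.05. Vgf is the gene farthest from 0 in each panel, at 3.47, -1.17 and -4.64 with all tumors.

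Vgf encodes a secreted precursor that is stored in granules and cut into neuroendocrine peptides, and it showed the widest spread of the 10. Control tumors had 13.9, 16.5, 5.55 and 11.6 normalized CPM, from 219 to 651 reads. Sunitinib-treated tumors 5, 6, 8 and 12 had 15.01, 366, 27.3 and 119 CPM, from 588 to 13243 reads. R+S-treated tumors 4, 5, 7 and 10 had 6.57, 3.64, 5.82 and 5.12 CPM, from 144 to 237 reads. Sunitinib-treated tumors 6, 8 and 12 lay above every control tumor and tumor 5 lay inside the control range, whereas all R+S-treated tumors lay below all sunitinib-treated tumors and overlapped with the lowest control tumor. The log2 fold change of sunitinib over control was 3.47 (SE 0.84, edgeR adjusted p = 0.0379), and a two-sided exact permutation test over the tumors gave p = 0.0571. Between R+S and sunitinib it was -4.64 (SE 0.89, edgeR adjusted p = 0.0257), with an exact permutation p of 0.0286, the smallest that 4 tumors against 4 allow. Between R+S and control it was -1.17 (95% interval -2.88 to 0.54, edgeR adjusted p = 0.43).

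How far the Vgf calls rested on single tumors differed between the comparisons. Leaving out tumor 6, sunitinib over control gave 2.18 on the log2 scale (edgeR adjusted p = 0.0604), and R+S over sunitinib -3.34 (edgeR adjusted p = 0.0237). Over all 12 omissions of 1 tumor, the call against control was kept in 2, without sunitinib-treated tumor 5 or 8, and the log2 fold change ran from 2.18 to 3.84. The call of R+S against sunitinib was kept in the 8 omissions of a control or sunitinib-treated tumor and lost in the 4 omissions of an R+S-treated tumor (edgeR adjusted p = 0.0523 without tumor 10 to 0.0941 without tumor 5). The acinar marker level, whose control and treated values do not overlap, was added as a covariate, and in that fit 0 of all genes passed against control. The log2 fold change of Vgf over control was 2.10 (SE 3.26, edgeR adjusted p = 1.00), and that of R+S over sunitinib was -4.40 (SE 1.04, edgeR adjusted p = 0.0607). Fits of only the 8 tumors compared lost both calls (edgeR adjusted p = 0.135 for sunitinib over control and 0.0994 for R+S over sunitinib), while in them the R+S value of -1.18 against control passed (edgeR adjusted p = 0.0419). Without a filter on low counts the call of sunitinib over control was lost (edgeR adjusted p = 0.0681) and that of R+S over sunitinib kept (edgeR adjusted p = 0.0398).

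**Figure D4:**
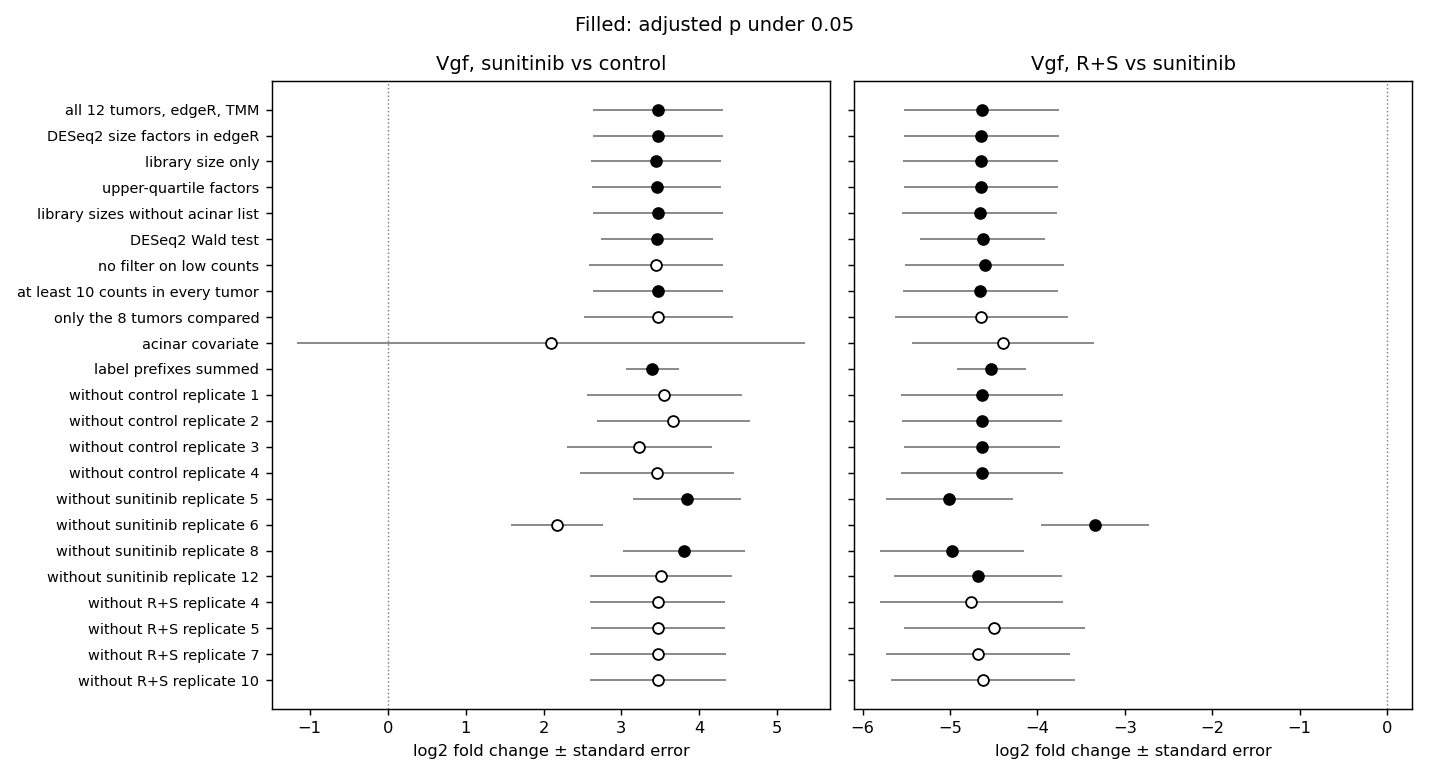
Log2 fold change of Vgf with its standard error under each processing alternative and with each tumor left out, filled where the adjusted p is under 0.05. The values stay above 2 for sunitinib over control and below -3 for R+S over sunitinib, while the call is lost in several rows, among them that without sunitinib-treated tumor 6 on the left.

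Chga, the precursor of pancreastatin and other peptides, was the steadiest granin apart from Scg3 in control tumors. It measured 2581, 3325, 2891 and 2643 CPM there, and 3882, 2849, 3757 and 4111 CPM in sunitinib-treated tumors 5, 6, 8 and 12. R+S-treated tumors 4, 5, 7 and 10 had 4722, 3316, 3244 and 3916 CPM. Apart from tumor 6, all sunitinib-treated tumors exceeded all control tumors, and both treated groups overlapped with control. Chga was 1.28-fold of control after sunitinib (log2 0.35, 95% interval -0.04 to 0.75, edgeR adjusted p = 0.31) and 1.33-fold after R+S (log2 0.41, 95% interval 0.01 to 0.81, edgeR adjusted p = 0.232). Without tumor 6 the first value was 0.45 on the log2 scale (edgeR adjusted p = 0.144). The difference between R+S and sunitinib was 0.06 (95% interval -0.34 to 0.45).

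Chgb, the second chromogranin, measured 2554, 2446, 1466 and 1481 CPM in control tumors and 2097, 4075, 3101 and 3595 CPM in sunitinib-treated tumors. In R+S-treated tumors it measured 7217, 2728, 2535 and 1901 CPM. Tumors 6, 8 and 12 of the sunitinib group exceeded every control tumor, and R+S-treated tumor 4 lay far above the rest of its group. The log2 fold changes over control were 0.70 (95% interval -0.18 to 1.57, edgeR adjusted p = 0.365) after sunitinib and 0.86 (95% interval -0.02 to 1.73, edgeR adjusted p = 0.258) after R+S. Without R+S-treated tumor 4 the second was 0.27. Neither passed.

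Scg2, the precursor of secretoneurin, measured 2667, 5922, 3647 and 3714 CPM in control tumors and 6119.9, 1491, 5923 and 8155 CPM in sunitinib-treated tumors 5, 6, 8 and 12. R+S-treated tumors had 5659, 3649, 4034 and 4409.6 CPM. The lowest and the highest of the 12 values were thus both in the sunitinib group. Its log2 fold change over control was 0.44 (95% interval -0.47 to 1.36, edgeR adjusted p = 0.588) with tumor 6 and 0.76 (95% interval 0.19 to 1.32, edgeR adjusted p = 0.131) without it. After R+S it was 0.15 (95% interval -0.76 to 1.07).

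Scg3, which binds Chga and tethers the granule core to cholesterol-rich membrane, was the least variable of the 10 in control tumors, at 1215, 1262, 1151 and 1153 CPM, a coefficient of variation of 4.45%. Sunitinib-treated tumors 5, 6, 8 and 12 had 853, 82.7, 1440.4 and 870 CPM, and R+S-treated tumors 1699, 1054, 1176 and 1158 CPM. Tumor 6 was thus far below every other tumor, and tumors 5 and 12 lay below, and tumor 8 above, every control tumor. The log2 fold change of sunitinib over control was -0.56 (95% interval -1.77 to 0.65, edgeR adjusted p = 0.608), and -0.18 (95% interval -0.65 to 0.29) without tumor 6. Scg2, Scg3, Chga and Pcsk1 had their lowest value of the group in tumor 6, while Chgb, Scg5, Pcsk1n and Vgf had their highest there.

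**Figure D5:**
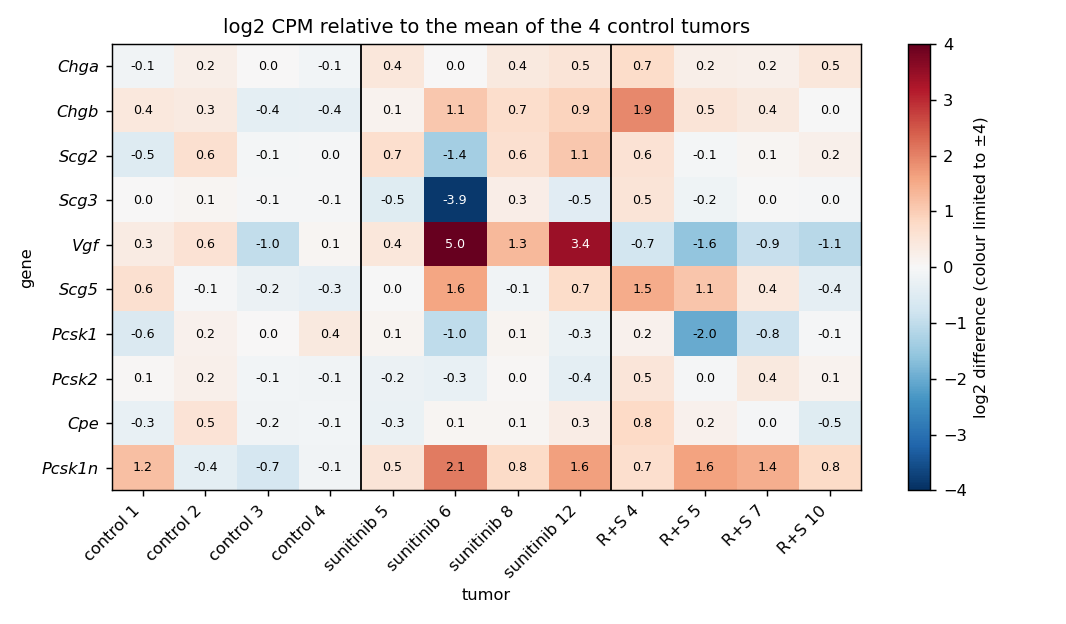
Log2 CPM of each gene in each tumor minus the mean of the 4 control tumors (color limited to ±4). In sunitinib-treated tumor 6 Vgf is 5.05 above and Scg3 3.85 below the control mean, and Chga, Pcsk2 and Cpe stay within 0.79 of it in every tumor.

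The convertases differed in their spread. Pcsk2, whose product takes part in the cutting of proinsulin and, in alpha cells, turns proglucagon into glucagon, measured 3871, 4263, 3440.5 and 3356 CPM in control tumors and 3191, 3003, 3811 and 2821 CPM in sunitinib-treated tumors. R+S-treated tumors had 5196, 3595, 4895 and 4093 CPM. The R+S-treated group lay highest, and its lowest tumor fell below the highest sunitinib-treated tumor. R+S over sunitinib gave a log2 fold change of 0.47 (95% interval 0.09 to 0.85, edgeR adjusted p = 0.0997, exact permutation p = 0.0571), which did not pass, while DESeq2's Wald test called it (adjusted p = 0.0286). Without tumor 6 it was 0.44 (edgeR adjusted p = 0.108). Against control the log2 fold changes were -0.22 (95% interval -0.60 to 0.16) for sunitinib and 0.25 (95% interval -0.13 to 0.63) for R+S.

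Pcsk1, whose product also cuts proinsulin, measured 194, 328, 293 and 378 CPM in control tumors and 316, 144, 310.1 and 241 CPM in sunitinib-treated tumors. R+S-treated tumors 4, 5, 7 and 10 had 325, 71.8, 162 and 279 CPM. All groups overlapped, with the lowest value in R+S-treated tumor 5. Sunitinib gave a log2 fold change of -0.24 (95% interval -1.13 to 0.65, edgeR adjusted p = 0.776) and R+S of -0.51 (95% interval -1.40 to 0.38, edgeR adjusted p = 0.514).

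Of the proteins that bind the convertases, Pcsk1n, whose product proSAAS inhibits PC1/3, measured 692, 231, 188 and 274 CPM in control tumors. Sunitinib-treated tumors had 429, 1271, 507 and 942 CPM, and R+S-treated tumors 477, 928, 823 and 516 CPM. Every treated tumor exceeded control tumors 2, 3 and 4, and control tumor 1 alone made the groups overlap. Pcsk1n was 2.27-fold of control after sunitinib (log2 1.19, SE 0.46, edgeR adjusted p = 0.181) and 1.98-fold after R+S (log2 0.99, SE 0.46, edgeR adjusted p = 0.254), and neither passed. Without control tumor 1 the sunitinib value was 1.77 and passed (edgeR adjusted p = 0.0374), and the R+S value was 1.57 (edgeR adjusted p = 0.0606). Without sunitinib-treated tumor 6 the sunitinib value was 0.85 (edgeR adjusted p = 0.319). The log2 ratio per length of Pcsk1 to Pcsk1n ranged from -3.19 to -0.71 in control, -4.50 to -1.80 in sunitinib-treated and -5.04 to -1.91 in R+S-treated tumors, ranges that overlap.

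Scg5 encodes 7B2, the chaperone that proPC2 needs to mature. It measured 465, 289.6, 254 and 240.04 CPM in control tumors, 295, 909, 273 and 496 CPM in sunitinib-treated tumors and 842, 646, 403 and 232 CPM in R+S-treated tumors. The groups overlapped, and the highest values were in sunitinib-treated tumor 6 and R+S-treated tumor 4. The log2 fold changes over control were 0.66 (95% interval -0.32 to 1.64, edgeR adjusted p = 0.442) and 0.77 (95% interval -0.21 to 1.75, edgeR adjusted p = 0.363), and the first was 0.18 without tumor 6.

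Cpe measured 2167, 3812, 2370.4 and 2456 CPM in control tumors, 2210.004, 2806, 2796 and 3257 CPM in sunitinib-treated tumors and 4554, 2952, 2575 and 1865 CPM in R+S-treated tumors. Tumor 6 was not apart from its group for Cpe. The groups overlapped throughout, with log2 fold changes of 0.03 (95% interval -0.56 to 0.63) for sunitinib and 0.14 (95% interval -0.45 to 0.74) for R+S over control, and 0.11 (95% interval -0.49 to 0.71) for R+S over sunitinib.

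For the other enzymes that process secretory cargo, 21 genes were listed and all were tested. Furin, a convertase of the trans-Golgi that acts outside the regulated granules, rose with R+S from a mean of 62.8 CPM in control tumors (54.8 to 70.2) to 92.5 CPM (83.7 to 103), with no overlap. Its log2 fold change was 0.56 over control (edgeR adjusted p = 0.0426) and 0.63 over sunitinib (edgeR adjusted p = 0.0294), and 0.56 and 0.60 without tumor 6, where both passed. Against control the call was lost with library-size or upper-quartile scaling, without a filter on low counts and with the acinar covariate. Summing label prefixes left no replicate in the control group and so could not decide it. Ctsl, cathepsin L, a protease of lysosomes and of some granules, measured 103 to 185 CPM in control, 233 to 447 CPM in sunitinib-treated and 126 to 229 CPM in R+S-treated tumors. It rose with sunitinib (log2 1.06, edgeR adjusted p = 0.0411) and was lower with R+S than with sunitinib (log2 -0.96, edgeR adjusted p = 0.048), and without tumor 6 neither passed (edgeR adjusted p = 0.0707 and 0.0678). In all 1, 1 and 2 genes of the 21 passed in the 3 comparisons, where 4.48%, 4.16% and 7.21% of all genes did, with medians of -0.11, 0.04 and -0.04 on the log2 scale. Pam, which amidates the ends of peptides and is named here after its values were seen, reached 1281 CPM in tumor 6 against 283 to 326 CPM in the other sunitinib-treated tumors. It was at 346 to 659 CPM in R+S-treated and 232 to 310 CPM in control tumors, groups that did not overlap, where 11.6% of all genes were higher without overlap. Its log2 fold change of R+S over control was 0.99 with and without tumor 6, with edgeR adjusted p values of 0.245 and 0.0116.

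Of 32 genes for granule membrane and biogenesis 31 were tested. None passed against control in either treated group by edgeR, where 4.48% and 4.16% of all genes did. An unadjusted p under 0.05 was found for 5 and 2 of the 31, and for 19.5% and 20.1% of all genes. DESeq2, which called more of all genes than edgeR, called 0 of the list after sunitinib and 1 after R+S. Between R+S and sunitinib Cadps, which primes granules for release, passed as higher. It measured 198 to 277 CPM in R+S-treated and 95.9 to 183 CPM in sunitinib-treated tumors (log2 0.73, edgeR adjusted p = 0.0408), and 0.86 on the log2 scale without tumor 6 (edgeR adjusted p = 0.0276). The medians of the list were -0.17, -0.03 and 0.19.

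Of 35 peptide precursors 23 were tested, and 2, 1 and 2 passed in the 3 comparisons, where 4.48%, 4.16% and 7.21% of all genes did. Cartpt, the CART neuropeptide precursor, measured 5.30, 4.23, 2.46 and 2.65 CPM in control tumors and 6.15, 5272, 6.94 and 44.2 CPM in sunitinib-treated tumors 5, 6, 8 and 12. The order of those 4 tumors was the same as for Vgf. Cartpt passed as higher with sunitinib (log2 8.50, edgeR adjusted p = 0.0493) and lower with R+S than with sunitinib (log2 -8.53, edgeR adjusted p = 0.0409), and without tumor 6 the values were 2.38 and -2.40 and neither passed (edgeR adjusted p = 0.109 and 0.065). Edn1, endothelin-1, had low levels throughout, 0.39 to 0.89 CPM in control, 1.38 to 2.10 CPM in sunitinib-treated and 1.41 to 3.19 CPM in R+S-treated tumors. It rose with both treatments (log2 1.43 and 1.74, edgeR adjusted p = 0.0452 and 0.0198), and without tumor 6 the sunitinib value of 1.30 did not pass (edgeR adjusted p = 0.073). Gast, the gastrin precursor, was lower with R+S than with sunitinib at levels under 2 CPM (log2 -2.05, edgeR adjusted p = 0.047). Of 8 regulators of neuroendocrine genes, St18, a zinc-finger factor, measured 142 to 192 CPM in R+S-treated and 57.3 to 132 CPM in sunitinib-treated tumors and passed as higher (log2 0.89, edgeR adjusted p = 0.0458), and without tumor 6 it did not (log2 0.72, edgeR adjusted p = 0.0514). All 8 had negative log2 fold changes of sunitinib over control, from -0.69 to -0.15, where 46.7% of all genes were negative, and without tumor 6 Pax6 was at 0.03. With all tumors none of the 8 passed by edgeR or DESeq2, with 1 at an unadjusted p under 0.05, where 19.5% of all genes were.

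The members did not share 1 profile. Likeness was measured as the root mean square difference between log2 CPM profiles over the 12 tumors, each centered on its mean, among 10687 genes. The nearest genes were Ckap4 (0.13) and Acadl (0.14) for Chga, Ccni (0.11) and Lactb (0.14) for Pcsk2, Bambi (0.18) and Rasgef1a (0.20) for Cpe, and Aplp1 (0.20) and Klhl23 (0.24) for Scg5. They were Sncb (0.25) and Fam19a5 (0.40) for Pcsk1n, Tmc6 (0.25) and Dnase2a (0.26) for Scg2, H2-Q2 (0.23) and Vipr1 (0.24) for Scg3, Limch1 (0.31) and Pdzrn4 (0.34) for Pcsk1, and Acaa2 (0.34) and Cst3 (0.35) for Chgb. Vgf had no close neighbor, with Cd24a at 0.87 and Ldha, a lactate dehydrogenase subunit, at 0.95, beside its own SD of 1.97. Without tumor 6 its nearest genes were Cartpt (0.64) and Plk3 (0.65), and those of Scg3 were Gpc4 and Tusc2, while Ccni, Aplp1, Bambi, Sncb and Ckap4 remained the first for Pcsk2, Scg5, Cpe, Pcsk1n and Chga. Of the pairs among the 10, Chga and Pcsk2 had the smallest difference (0.31), but both varied little (own SD 0.272 and 0.268). Their difference thus exceeded the SD of either gene, and Pcsk2 came only at rank 2626 among the neighbors of Chga. The member nearest to Cpe was Chga (0.33, own SD 0.361 and 0.272), and Scg5 and Chgb were nearest to each other (0.39, own SD 0.706 and 0.641). Scg5 came at rank 12 among the neighbors of Chgb.

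The genes lie on separate chromosomes for the most part. In GRCm38 with GENCODE M21, Vgf spans chr5:137026392-137033351 on the + strand, Chga chr12:102554969-102565028 (+), Scg3 chr9:75643189-75684056 (-) and Cpe chr8:64592542-64693054 (-). Chgb, Scg5 and Pcsk2 lie on chromosome 2. All 10 are protein-coding, and the counts are over their exons. Genes on the opposite strand overlap Pcsk2 (Pcsk2os1 and Pcsk2os2), Pcsk1n (Eras) and Scg3 (Gm37871), and at most 0.572% of the 50-base words of a member occur in another gene.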

How the data were processed

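For each of 12 tumors the authors deposited a table of whole-number read counts per gene, without normalization, for 38924 Ensembl genes and 5 totals, which were left out. Per the submitters' processing notes and labels, stranded TruSeq mRNA libraries were trimmed with cutadapt 1.2.1, aligned with TopHat2 2.0.9 to GRCm38 and counted with HTSeq 0.5.4p3. The annotation release is not given in the sources used here. Groups and tumor numbers came from the labels, and nothing there says that the tumors came from separate mice. The p-values may thus measure in part a spread among tumors of the same mouse, or a technical one, and not that between mice.

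Counts were scaled by TMM, filtered by filterByExpr (minimum count 10, minimum total 15, which kept 16645 genes) and entered in 1 fit of all 12 tumors, with quasi-likelihood F-tests in edgeR 4.0.16 (R 4.3.3, limma 3.58.1). P-values were Benjamini-Hochberg adjusted over all genes tested, with a threshold of 0.05. All 10 genes passed the filter. The test the study used for these counts is not given in the sources used here. Log2 values used a prior count of 2. Exact permutation tests were two-sided over 70 arrangements. RPKM used GENCODE M21 exon lengths. In simulated counts for sunitinib over control, 48 of 100 genes changed by 1 on the log2 scale and 86 of 100 changed by 2 were recovered among 16499 genes, with 3 unchanged genes called. Alternatives were DESeq2 1.42.0 and the settings described under the closing observations, and counting errors exclude PCR copies, which were not marked.

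Promoters are from RefSeq, read with Python 3.11.15 and pandas 2.3.3. The 10 members and all lists were chosen with earlier results of these data known. The named genes are all 10 members, called members of the other lists (up to 6 a list) and, for each member, the 2 genes with the nearest profile.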

Additional observations from a re-analysis of the deposited data

Results flagged for a closer look

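Chgb in R+S-treated tumor 4 measured 7217 CPM, beside 2728 CPM in the next tumor of that group, a gap of 0.844 of the range of the group and above Dixon's 95% critical value for 4 samples. On the log2 scale the gap did not reach that value. Of 30 groups of 4 tumors examined, 1 had such a sample, and chance gives about 1 in 20.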

How the results depend on the processing

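No paired analysis was possible because the groups compared share fewer than 2 replicate numbers. Among the 3 counts of members called, DESeq2's Wald test gave 2 for R+S over sunitinib (Pcsk2 higher and Vgf lower). No filter on low counts gave 0 for sunitinib over control. Fits of only the 8 tumors compared gave 0 for sunitinib over control, 1 for R+S over control (Vgf, lower) and 0 for R+S over sunitinib. The acinar covariate gave 0 for sunitinib over control and 0 for R+S over sunitinib. With 1 tumor left out at a time the counts ran from 0 to 1 for sunitinib over control and for R+S over sunitinib, and were 0 for R+S over control. The cause of these differences was not tested. Scaling by DESeq2's factors, library size or upper quartile, library sizes without acinar genes, a minimum of 10 counts in every tumor and a minimum absolute log2 fold change of 1 kept the counts of members. Summing tumors by label prefix left no replicate in the control group. That fit therefore cannot decide whether the calls hold if tumors that share a prefix are not independent. Over all genes, counts of calls differed by more than 1.5 times with DESeq2 (1513, 1659 and 2972, beside 745, 693 and 1200), with only the 8 tumors compared (380, 2557 and 3), with the acinar covariate (0, 0 and 231), with no filter for R+S over sunitinib (501), with 10 counts in every tumor for sunitinib over control (408) and with the minimum fold for both R+S comparisons (458 and 408).

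Over single members, of 660 values under the alternatives 612 kept direction and side of the threshold 19 lost the call, all of them of Vgf, 3 gained one (Pcsk2 with DESeq2, Vgf in R+S over control with 8 tumors, Pcsk1n without control tumor 1), and 26 changed sign, none of which belonged to Vgf. With the acinar covariate these were, for sunitinib over control, Chgb at -0.0411, Scg5 at -1.10, Pcsk1 at 0.98 and Pcsk1n at -1.42; for R+S over control, Scg5 at -0.71, Pcsk1 at 0.55 and Pcsk1n at -1.17; and for R+S over sunitinib, Chga at -0.0181, Cpe at -0.0772 and Pcsk1n at 0.25. With 1 tumor left out, Cpe ranged from -0.0584 to 0.25 for sunitinib over control. For R+S over control Scg3 ranged from -0.0803 to 0.17 and Cpe from -0.13 to 0.36. For R+S over sunitinib Chga ranged from -0.0606 to 0.13, Chgb from -0.43 to 0.37, Scg5 from -0.20 to 0.58, Pcsk1 from -0.56 to 0.0151, Cpe from -0.16 to 0.28 and Pcsk1n from -0.41 to 0.13. The counts of the other lists without sunitinib-treated tumor 6, chosen after seeing the data, were 2, 0, 0 and 0 for enzymes, granule genes, precursors and regulators in sunitinib over control, 2, 1, 3 and 0 in R+S over control, and 2, 2, 4 and 0 in R+S over sunitinib. In that fit 5.3%, 9.67% and 10.1% of all genes passed. Depth limited Edn1 and Gast, with at most 115 and 59 reads in a tumor.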
